A study of Drosophila melanogaster with 5 samples.

Results

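The RNA of circulating blood cells (hemocytes) from control larvae of Drosophila melanogaster was described by level, from the most abundant signals to the genes at background. The data were the 1 array of the control strain W1118, of 5 arrays in the series, and the 300 probe sets with the highest values out of 18769 were taken as the most abundant RNAs. A probe set is a group of short probes on the Affymetrix array that together report 1 transcript or several related ones. Larvae were at the third instar, the stage that ends in pupation, and the hemocytes of 200 to 300 larvae were pooled for the array, from which 1.0 to 1.3 µg of RNA was recovered. The RNA was amplified before it was labelled. The other arrays, from 4 mutant stocks, were not compared here.

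Hemocytes are the cellular arm of fly immunity. Most of those in a healthy larva are plasmatocytes, which engulf microbes and dying cells and lay down much of the basement membrane of the animal. A minority are crystal cells, which store prophenoloxidases, the enzymes that start melanin formation at wounds. Lamellocytes, flat cells that wrap parasites too large to engulf, are rare unless the larva is parasitised or stressed. Some hemocytes also wait in the lymph gland, the larval blood-forming organ, with its own progenitors and niche.

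With 1 array there was no replicate, so no test was made and no error between animals can be given. All values are levels on a log2 scale, on which 1 unit is a 2-fold step in signal. A level also depends on how well the probes of a set bind, so a rank is a rank of signal and not of RNA molecules. The spread between probe sets of the same gene, a pooled SD of 1.90 over 1094 genes, gives the scale of that uncertainty. Neighbours in the ranking are therefore not ordered by these data. In cells taken in bulk, fewer cells of a type and less RNA per cell cannot be told apart.

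Levels ran from 2.62 to 14.69 with a median of 4.54, and their distribution had a tall narrow peak at the bottom. The bin from 3 to 4 held 7298 probe sets, 38.9% of all. A broad second group lay above it, with 1456 probe sets between 8 and 9, 161 between 13 and 14, and 29 at 14 or more. Background was read from 27 control probe sets for genes of the bacterium Bacillus. Their levels were between 2.80 and 4.33, with a median of 3.17. At or below the highest of them lay 8840 probe sets, 47.1% of those ranked. This count depends on the limit: 1301 probe sets lay at or below the median of the Bacillus controls. Of 11982 named genes, 3801 (31.7%) were at background by the highest control and 2261 by the 95th percentile of these controls, a level of 3.73. The latter is called the lower limit below, and a gene between it and 4.33 loses its background call there.

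**Figure D1:**
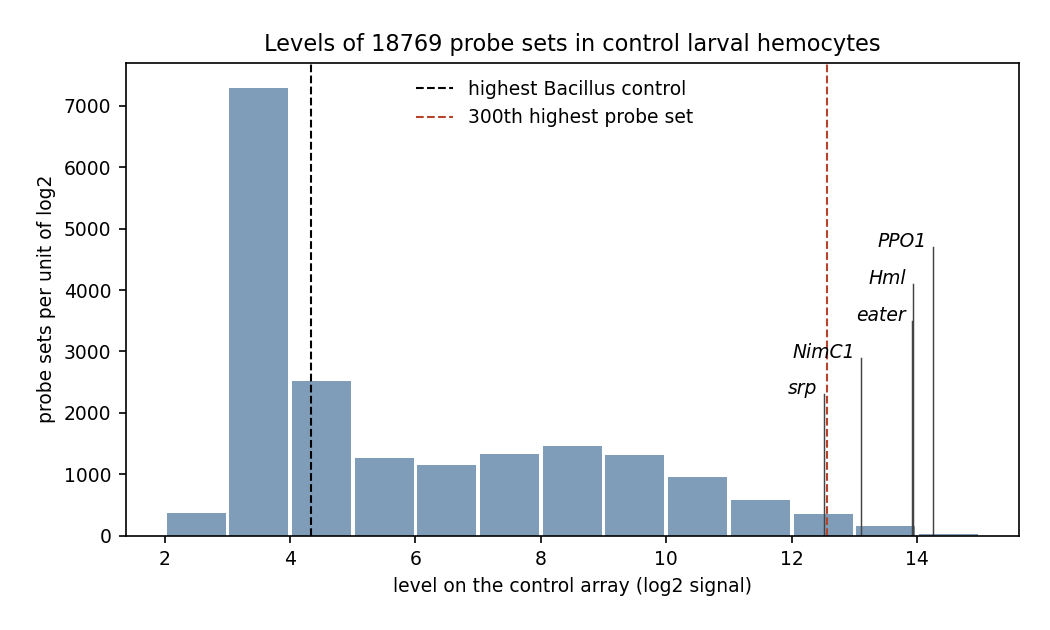
Number of probe sets (vertical axis) per unit of log2 level (horizontal axis) on the control array. The dashed lines mark the highest Bacillus control at 4.33 and the probe set of rank 300 at 12.56, and the vertical lines place the blood cell genes srp, NimC1, eater, Hml and PPO1, which all lie at the far right.

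The defining blood cell genes were at the top of the array. PPO1, a prophenoloxidase of crystal cells, had a level of 14.26 and rank 9. Hml, which encodes hemolectin, a large clotting protein of plasmatocytes, stood at 13.93 and rank 32. eater, a phagocytosis receptor for bacteria, followed at 13.92 and rank 34. NimC1, a receptor of the same Nimrod family and a standard plasmatocyte surface marker, stood at 13.11 and rank 164. srp, the GATA transcription factor that all hemocytes need, was at 12.51 and rank 319, just outside the 300 highest. The label of the sample as hemocytes thus matched the signal of all 5 markers.

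The 300 highest probe sets held 33.2% of the summed linear signal of all 18769, and the 10 highest held 2.23%. They spanned 2.14 log2 units, from 14.69 to 12.56, and the first 40 of them spanned 0.80. The values at the lower edge were close together. B52 (12.57) and COX7A (12.56), with an unnamed probe set at rank 300 (12.56), lay just inside. A further unnamed probe set (12.56), ifc (12.55) and CG9547 (12.55) lay just outside.

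Of the 300, 217 carried 1 gene symbol and stood for 215 genes, 4 matched several genes and 79 had no symbol in the platform annotation. The latter are unnamed here, and they include 16 of the first 40. Over the whole array, 1.59% of probe sets with 1 symbol and 1.67% of those without one were among the 300 highest. Of all named genes, 1.79% had a probe set there, which is the background for the counts of genes given below. Of the 215 genes, 147 were given to a class of known function with their levels in view, so the class counts are a description.

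Named probe sets among the first 40 mixed blood cell genes with lysosomal, cytoskeletal and ribosomal ones. The highest was regucalcin (14.69), a relative of a calcium-binding protein of vertebrates, followed by Glt (14.41), which encodes glutactin, a glycoprotein of basement membranes. PPO1 was joined by the second prophenoloxidase gene of crystal cells, PPO2 (14.20). Lysosomal genes in this range were Hexo2 (14.14), a beta-hexosaminidase, Sap-r (14.09), the precursor of the saposins that help digest sphingolipids, and Gal (14.07), a beta-galactosidase. Moe (14.08), which ties the membrane to actin, and tsr (14.00), the fly cofilin that severs actin filaments, stood for the cytoskeleton. Protein synthesis was represented by RpL41 (14.10), RpL23 (13.93), RpL3 (13.93) and Nacalpha (14.00), part of a complex that binds new polypeptides at the ribosome.

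The remaining named probe sets of the first 40 had wider roles. vsg (14.19) encodes a membrane mucin, Ama (14.10) a secreted adhesion protein with immunoglobulin domains, and fabp (14.04) a fatty acid binding protein. SPARC (13.92) encodes a collagen-binding matrix protein, Prip (13.91) an aquaporin and Vha16-1 (13.90) the proteolipid ring of the vacuolar proton pump. CG8501 (14.25), Cndp2 (14.18) and Had2 (13.89) completed them. The classes below follow these themes through the whole of the 300.

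Among the assigned classes, protein synthesis had the most members, with 28 probe sets. It was followed by folding and the secretory pathway with 20, the cytoskeleton with 18, lysosome and proton pump with 17, and mitochondria and energy metabolism with 16. Immune recognition and defence had 15 and extracellular matrix and adhesion 14. Smaller classes were vesicle traffic with 6, RNA and nucleus with 6, iron, copper and redox with 5, and ubiquitin and proteasome with 2. Matrix and adhesion genes had a median rank of 93 within the 300, against 130 for protein synthesis and 230 for mitochondria. A further 70 probe sets with a symbol were not assigned.

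Plasmatocyte genes were mostly high, with the engulfment receptors spread over nearly the whole range of the array. Of 19 measured genes, 7 were among the 300 highest, 10 reached a level of 10 and 2 were at background. Across all named genes, 14.6% reached 10 and 31.7% were at background. The Nimrod family, whose members bind microbes or dying cells through repeated EGF-like domains or are secreted, showed the spread best. NimB4, a secreted member, stood at 13.57, NimB1 at 11.50 and NimB5 at 10.37. NimB2 (8.52), NimC2 (8.10) and NimB3 (7.84) lay lower, at the 70.5th, 66.4th and 63.9th percentile of named genes. NimC4, a receptor for apoptotic cells also known as SIMU, was low at 5.20, and NimA (4.25) and NimC3 (4.06) were at background, though not by the lower limit.

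The other engulfment receptors were also unequal. drpr (12.58), which recognises dying cells, and crq (12.13), a CD36-family receptor for apoptotic cells and bacteria, were both high. Among the class C scavenger receptors, which bind polyanions such as bacterial wall components, Sr-CI led at 12.93. Sr-CIV stood at 9.31, Sr-CIII at 6.44 and Sr-CII at 4.54, so that the family ran from the 300 highest down to just above the Bacillus controls.

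Crystal cell genes were also among the highest, from rank 9 downwards. Of 10 measured genes, 3 were among the 300 highest, namely PPO1, PPO2 and CG17109 (12.95). CG7860 (12.01), CG10469 (11.98), Ugt37D1 (11.00) and fok (10.86) followed, all above the level of 10. The other probe set of fok stood at 4.96. The transcription factors of the lineage were far lower. peb, a zinc finger factor also known as hindsight, stood at 6.59, dmrt99B at 5.37, and lz, the Runx factor that specifies crystal cells, at 3.89 was at background, a call that is lost at the lower limit.

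Lamellocyte genes ranged over much of the array above background. betaTub60D, a beta-tubulin, was at 13.36 and rank 115, and the integrin and actin linkers rhea (12.34, the fly talin), cher (11.80, filamin) and mys (11.21, the common beta integrin) were high. These genes are also used by other cells. Markers that are closer to lamellocytes lay lower: PPO3, the prophenoloxidase of lamellocytes, at 8.78, the alpha integrins ItgaPS4 at 7.69 and ItgaPS5 at 7.13, and atilla, a surface protein, at 6.26. Drip, an aquaporin, was the lowest at 5.43. None of the 15 was at background, against 31.7% of all named genes.

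Of the lymph gland genes, 4 of 8 were at background, against 31.7% of all named genes. kn, also called collier and required in the niche, stood at 4.11, Antp, a homeotic gene of the niche, at 3.68, shg, which encodes E-cadherin, at 3.86 and hh, the niche signal, at 3.07. By the lower limit Antp and hh remained at background, and kn and shg did not. dome, the cytokine receptor used as a progenitor marker, was at 6.91. Tep4 was the exception at 13.18 and rank 148. It encodes a thioester-containing protein, is used as a progenitor marker, and is also an immune gene.

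The transcription factors of the blood lineage ran from the 300 highest down to background. Rel (13.15), the NF-kappaB factor of the Imd pathway, and Stat92E (12.58), the only STAT of the fly, were among the 300 highest. pnr (11.45), a GATA factor, zfh1 (10.76), a zinc finger factor, and ush (10.64), a partner of GATA factors, were high beside srp. dl, the NF-kappaB factor dorsal, was at 9.30. Between dl and background lay peb (6.59), odd (5.46), jing (4.83) and Dif (4.56). gcm (4.18) and gcm2 (3.48), which direct plasmatocyte fate in the embryo, were at background, as was GATAe (3.94), a gut GATA factor. In all, 5 of 16 factors were at background (31.25%), close to the 31.7% of all named genes. Of these 5, 1 was so by the lower limit, gcm2.

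**Figure D2:**
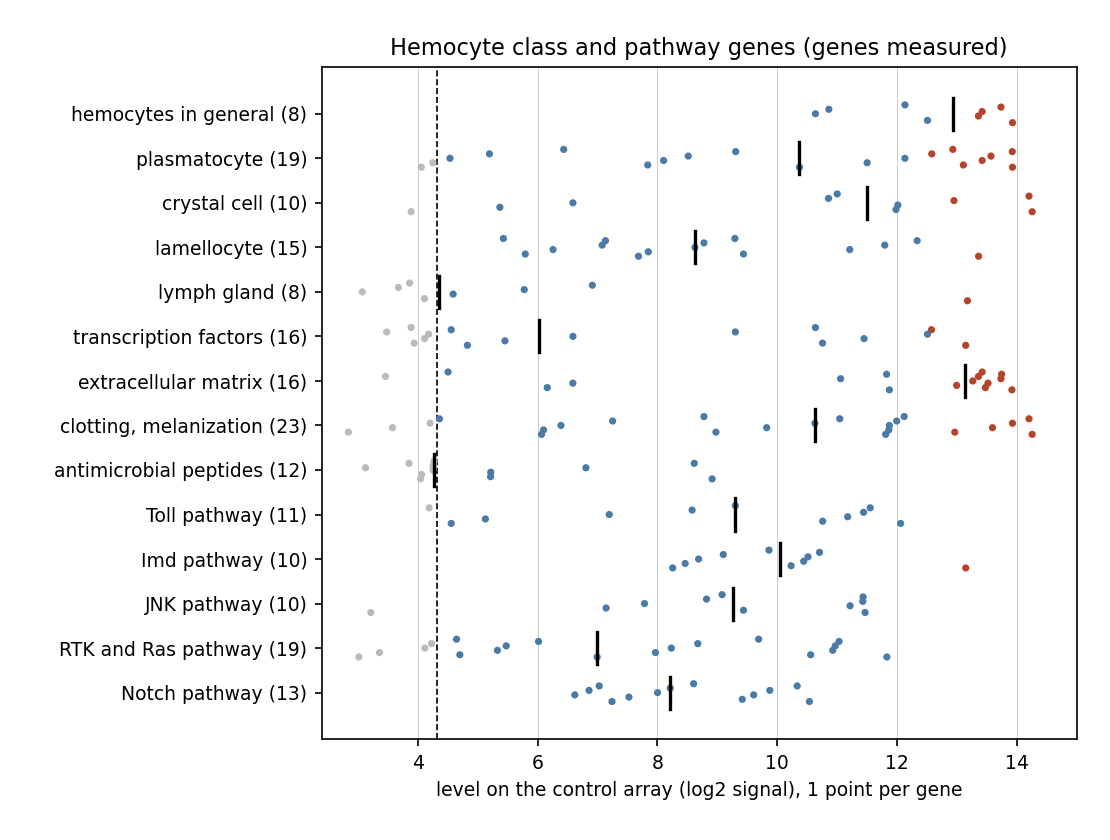
Level of each gene (horizontal axis, log2) on the control array, with 1 row per list and the number of measured genes in brackets. Red points are genes among the 300 highest probe sets, grey points are at background (left of the dashed line at 4.33), and black bars are list medians, which run from 13.13 for extracellular matrix to 4.26 for antimicrobial peptides.

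Basement membrane genes were mostly among the highest on the array. Basement membrane is the sheet of collagen IV, laminin and associated proteins under epithelia, and larval hemocytes are among its producers. The median of 16 genes was 13.13, against 6.25 for all named genes, and 9 were among the 300 highest. The collagen IV chains Col4a1 (13.74) and vkg (13.36), and the laminin chains LanA (13.75), LanB1 (13.47) and LanB2 (13.26), lay within 0.48 log2 units of each other. Plod (13.00) and PH4alphaEFB (11.83), enzymes that hydroxylate collagen, Ppn (13.52), papilin, and Pxn (13.42), peroxidasin, were also high. trol, the perlecan core protein, was at 11.06 by the highest of its 8 probe sets and at 2.93 by the lowest. The list was not uniform, since the metalloproteinase gene Mmp2 (6.16), its inhibitor Timp (6.59) and the collagen cross-linking enzyme Loxl1 (4.51) were low. Ndg, nidogen, was not above background at 3.46.

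Clotting and melanization genes had a median level of 10.63 over 23 genes. Besides PPO1, PPO2 and Hml, the 300 highest held Idgf6 (13.59), a chitinase-related growth factor, and yellow-f (12.97), an enzyme of melanin synthesis. Tig (11.87, tiggrin, an integrin ligand found in clots), Spn27A (11.99, a serpin that restrains melanization), Idgf3 (11.86), Idgf2 (11.81) and fon (10.63, a clot protein) were also high. The other probe set of Idgf3 stood at 6.26. Sp7, a protease that activates prophenoloxidase, was at 6.10. Tg (3.58, transglutaminase) and ple (2.84, tyrosine hydroxylase) were at background.

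Antimicrobial peptide genes were low, with a median level of 4.26 against 6.25 for all named genes. Of 12 measured, 7 were at background, among them Def (3.85) and DptB (4.25), and none reached 10. Of all named genes, 31.7% were at background. By the lower limit 1 of the 12 was at background, Drsl3 (3.13), against 2261 of 11982 named genes. Drs, drosomycin, was the highest at 8.91, followed by AttD at 8.62 and Mtk, metchnikowin, at 6.81. Genes of the pathways that induce such peptides were mostly above background. All 10 measured Imd pathway genes were above background, from Rel at 13.15 to IKKbeta at 8.26, with key (10.71), Dredd (9.86), imd (8.69) and Fadd (8.46) between them. Of 11 Toll pathway genes, 10 were above background. spz (12.06, the ligand), Tl (11.55, the receptor), cact (11.44, the inhibitor of NF-kappaB), tub (11.18) and pll (10.76) were high. Tl had another probe set at background, at 3.62. Dif, an NF-kappaB factor, was low at 4.56, and SPE (4.19), the protease that processes spz, was at background but not by the lower limit.

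Receptor pathways of blood cell growth showed one prominent receptor. Pvr, the receptor related to PDGF and VEGF receptors that hemocytes need to survive and migrate, was the highest of 19 genes of receptor tyrosine kinase signalling at 11.83. Its ligands were lower, with Pvf2 at 7.97, Pvf1 at 5.48 and Pvf3 at background with 4.23. Egfr was at background with 4.12, its ligand spi stood at 10.93 and the adaptor drk at 11.03. The kinase receptors htl (3.36) and Alk (3.02) were also at background, and these remained so by the lower limit, while Egfr and Pvf3 did not. The JNK pathway is a stress and wound cascade. In it, bsk (11.47, the JNK kinase), puc (11.43, its phosphatase), kay (11.43, Fos) and Jra (11.22, Jun) were close together by highest probe set. The lowest probe sets of bsk (3.22) and kay (3.39) were at background. egr, the TNF ligand, was at 7.79 by its highest probe set and at 3.83 by its lowest. Its receptors wgn and grnd stood at 7.14 and 3.22.

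Of 20 entries in the Notch pathway list, 13 were measured, and N, the gene of the Notch receptor, was not among them. All 13 were above background, with a median level of 8.21, while 31.7% of all named genes were at background. None of the 13 was among the 300 highest. kuz, the protease that cleaves Notch, was the highest at 10.54, followed by Psn (10.33), the catalytic part of gamma-secretase, and the target gene E(spl)mbeta-HLH (9.88). Among ecdysone response genes, br, an early gene of the steroid pulse that ends larval life, reached 12.25 by the highest of its 5 probe sets. The lowest of them stood at 4.82. The receptor gene EcR reached 8.89. Its partner usp stood at 7.78, and Hr3 (3.57) and Hr4 (4.26) were at background, of which only Hr3 was so by the lower limit.

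Genes that all cells use made up much of the assigned part of the 300 highest. Of 34 measured ribosomal protein genes, 20 were among the 300 highest, and the median level was 12.71. None was at background, against 31.7% of all named genes. The lowest were duplicate copies of ribosomal protein genes, RpS10a (4.56) and RpS28a (4.74). Some probe sets can detect more than 1 transcript, as their identifiers show, and without these ribosomal proteins made up 5.63% of the named probe sets in the 300 highest, in place of 9.22%. Translation factors had a median of 11.35 over 48 genes, led by eEF1gamma (13.86), eIF4A (13.42) and eEF5 (13.20).

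Lysosomal genes fell into separate groups. Of 20 measured, 11 were among the 300 highest, including the cysteine proteases CtsB (13.30), CtsL1 (13.25), CtsK1 (13.04) and CtsF (12.94), the aspartic protease cathD (12.69), LManII (13.69), a mannosidase, and Lamp1 (13.25), a lysosomal membrane protein. CtsK1 was added to the list with the 300 highest levels in view, so its place in both counts was fixed by its level. Npc2a (13.45), a sterol carrier of the lysosome, contrasted with its family members Npc2f (5.33), Npc2b (4.97), Npc2e (4.13), Npc2c (4.02) and Npc2d (3.97). Genes of the vacuolar proton pump, which acidifies the lysosome, also differed between gene copies. Vha16-1 (13.90), Vha26 (13.21), VhaPPA1-1 (13.18), Vha13 (13.03) and VhaSFD (12.68) were among the 300 highest. Other copies lay between the extremes, such as Vha68-3 (8.26), Vha100-3 (7.96), Vha16-5 (6.98) and Vha36-2 (6.05). In all, 26 of 31 pump genes were above background. The 5 alternative copies Vha16-2 (4.31), Vha16-4 (3.95), Vha36-3 (3.83), Vha100-4 (4.06) and VhaM9.7-a (3.67) were at background. By the lower limit 1 of these 5 was, VhaM9.7-a, and none of the 3 Npc2 genes was.

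Actin genes had 9 of 24 members among the 300 highest and a median level of 12.25. None was at background, against 31.7% of all named genes. Besides Moe and tsr, the 9 included chic (13.42, profilin), Gel (13.41, gelsolin), Mlc-c (13.35, a myosin light chain), cpa (13.21, a capping protein), and the Arp2/3 subunits Arpc2 (13.08) and Arpc1 (12.63). The lowest was Arpc3A at 8.55. Among chaperones of the secretory pathway, ERp60 (13.71), a disulfide isomerase, and Hsc70-3 (13.66), the fly BiP, were high. Hsp27 (13.56), a small heat shock protein, and Hsc70-4 (13.23), a chaperone of the cytosol, were close to them.

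Lists of energy metabolism had medians of 10.98 over 11 genes of the TCA cycle, 10.72 over 10 genes of glycolysis and 9.47 over 77 genes of the respiratory chain, against 11.20 for chaperones. The highest respiratory chain genes were blw (13.59), the alpha subunit of ATP synthase, ND-42 (12.76) and COX4 (12.75). Glycolysis genes ran from Eno (12.09, enolase) and Ald1 (11.82, aldolase) down to Hex-A (6.72) and Hex-C (3.99), the hexokinases, of which Hex-C was at background but not by the lower limit. Iron storage was high, with the ferritin chains Fer1HCH at 13.52 and Fer2LCH at 13.00, while the metal carrier Tsf1, transferrin, was at 5.34. The 19 genes of cell division and DNA replication had a list median of 8.01, at the 65.5th percentile of named genes. They ran from RnrL (10.47), a ribonucleotide reductase subunit, to Orc1 (5.56), part of the origin recognition complex. None was at background or among the 300 highest, against 31.7% and 1.79% of all named genes.

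**Figure D3:**
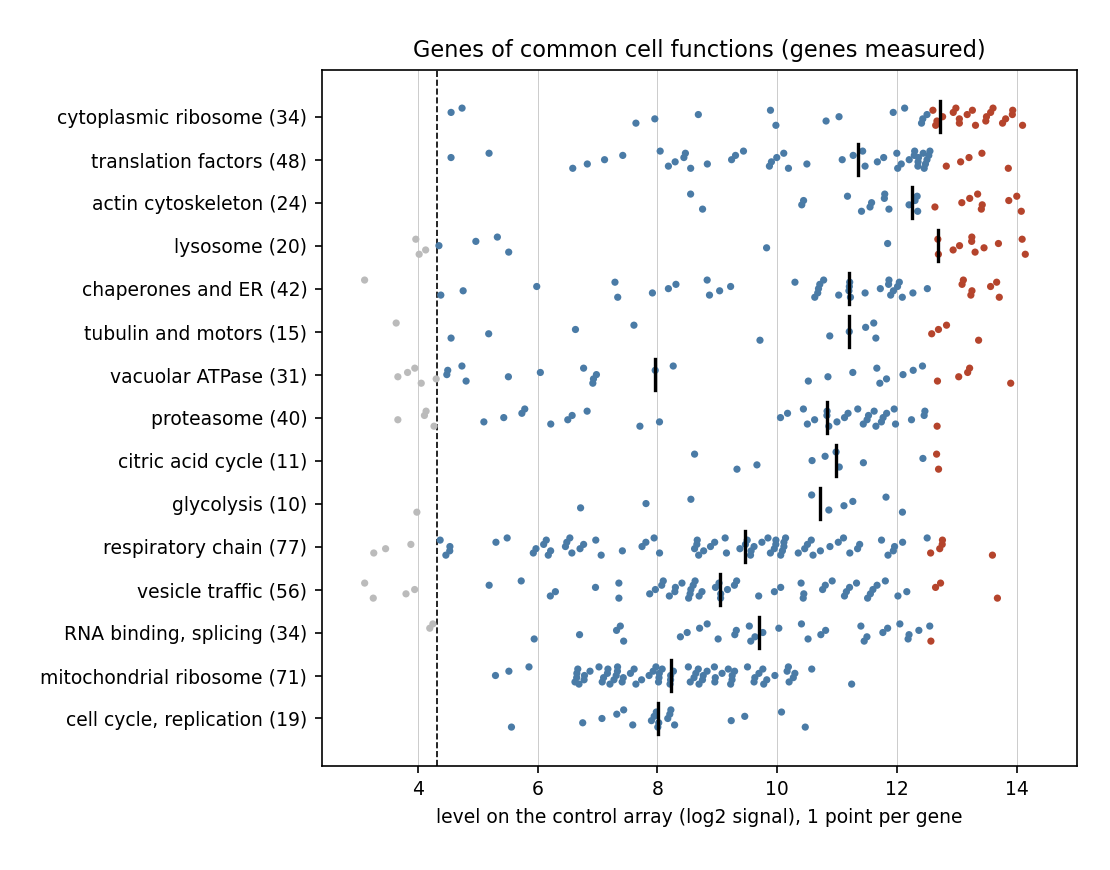
Level of each gene (horizontal axis, log2) on the control array for lists of common cell functions, with the number of measured genes in brackets and colours as in the plot of blood cell lists. Ribosomal protein genes have a median of 12.71 and lysosomal genes one of 12.69, while the list of cell division and DNA replication has one of 8.01.

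Genes that mark other tissues were read in the same way. Chemoreceptor genes, which neurons of the sense organs use, marked the lower end of the array. Of 166 odorant, gustatory and ionotropic receptor genes, 157 were at background (94.6%), against 31.7% of all named genes, and their median level was 3.44. By the lower limit 124 of the 166 were. Exceptions above 6 were Or1a (6.54) and Ir76a (6.68). All 8 genes of a short list of homeotic and segmentation genes were at background, with zen the highest at 4.08, and 6 of them by the lower limit. The pair-rule gene odd, held in the list of blood cell factors, stood at 5.46. Also at background were 21 of 22 genes of the male accessory gland, which is an adult organ. The exception was Acp95EF at 6.49, and 18 of the 22 were at background by the lower limit.

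Nervous system genes were at background in 15 of 21 cases and in 10 by the lower limit, including VAChT (2.86), ChAT (3.13) and the glial gene repo (3.33), while elav, the general neuronal marker, stood at 6.63. Csp (10.82), a chaperone of vesicle release, was the highest of this list. Of all named genes, 31.7% were at background, and 2261 of 11982 were so by the lower limit. Cuticle genes were at background in 81 of 114 cases, and in 48 by the lower limit. Cpr49Ac was a single exception in the 300 highest at 13.45 and rank 103, and TwdlE reached 10.29 while every other cuticle gene stayed at or below 6.55. Odorant binding protein genes included Obp99b at 10.80 and Obp44a at 9.54, with 39 of 47 at background and 23 by the lower limit.

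Most genes of the fat body, salivary gland, muscle and male germ line lists were above background, as were most named genes. In turn, 21.4%, 23.1%, 14.3% and 7.69% of these lists were at background, against 31.7% of all named genes. The salivary gland and muscle lists had medians of 6.36 and 5.55, against 6.25 for all named genes. Of 14 fat body genes, 11 were above background and the list median was 9.52. apolpp (12.33), the lipid carrier protein of the blood, Fbp2 (12.15), Lsp2 (12.12), a larval storage protein that is also in the clotting list, and Fbp1 (10.96), the storage protein receptor, were the most specific of these. Desat1 (11.27) and FASN1 (10.40) are lipid enzymes that other cells also use. Among salivary glue genes Sgs3 (7.97), Sgs8 (7.97), Sgs5 (6.75), Sgs7 (6.36), Sgs4 (5.61) and Sgs5bis (4.88) were above background and Sgs1 (4.22) was not. In muscle, Zasp52 (12.30), which other cells use in integrin contacts, stood apart from the sarcomere genes, of which bt, a giant muscle kinase, was the highest at 8.43. Tm2 (6.71), Mlc1 (6.60) and up (5.78) were lower, and Mlc2 (3.66) and Act88F (3.83) were at background, Act88F not by the lower limit. Sgs1 also lost its call there. The part that RNA of other tissues had in any result was not tested.

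Male germ line genes were mostly above background. Of 39 genes, 36 were above background and 6 reached a level of 10, and the median level was 7.07. Of all 11982 named genes, 14.6% reached 10 and 31.7% were at background, with a median of 6.25. betaTub85D, the tubulin of the testis, was the highest at 11.48. S-Lap2 (10.99), S-Lap7 (10.88) and S-Lap8 (10.12), leucyl aminopeptidases of sperm, Mst77F (10.36), a chromatin protein of sperm, and Mst98Ca (10.34) followed. The protamines ProtA (6.79) and ProtB (6.32), which pack sperm DNA, were lower. Regulators that start this program in spermatocytes were below a level of 8, with mia at 7.32, can at 7.07, sa at 5.39, aly at 4.80, topi at 4.60 and comr at 4.53. The female germ line and egg shell list differed, with 13 of 23 genes at background, 7 of them by the lower limit, and none above aub, a Piwi-family gene, at 6.62. Of the female and general germ line genes, vas (3.74), osk (3.46) and orb (3.19) were at background, and vas lost its call by the lower limit.

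**Figure D4:**
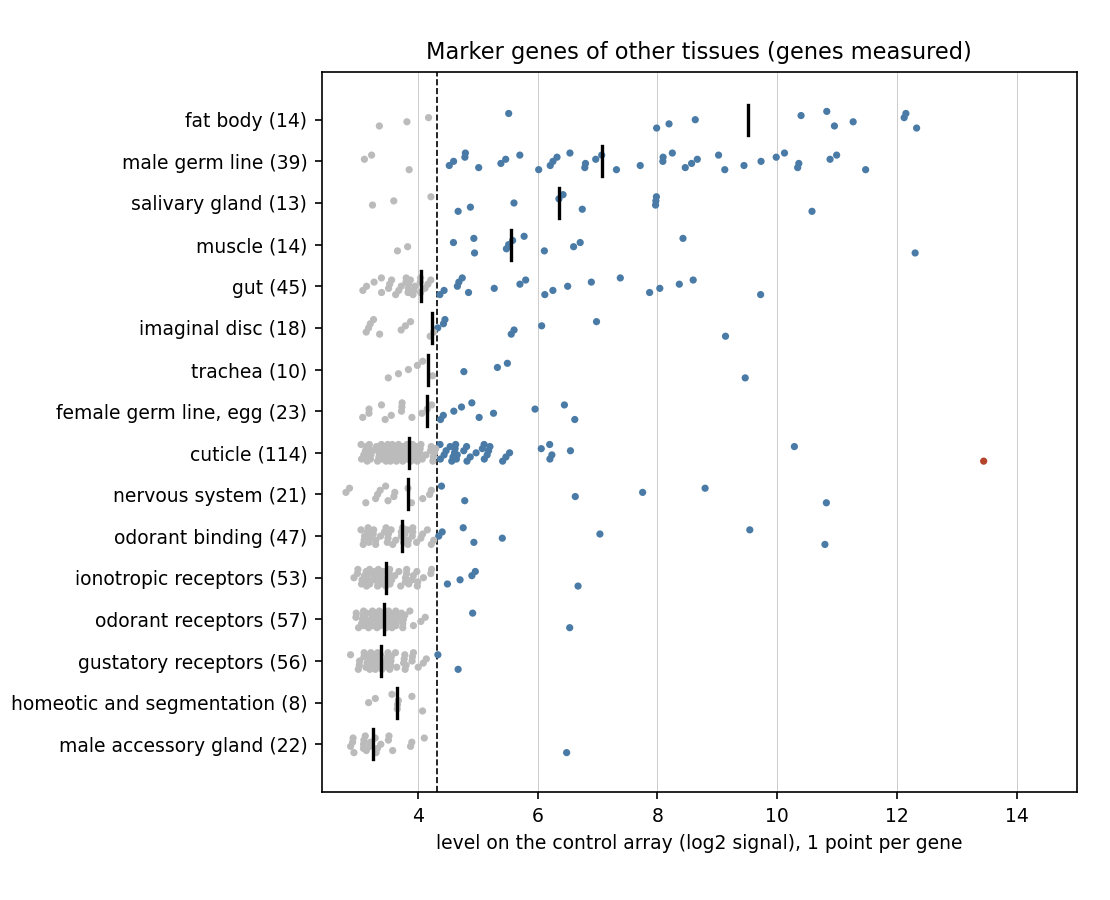
Level of each gene (horizontal axis, log2) on the control array for marker lists of other tissues, with the number of measured genes in brackets and colours as in the plot of blood cell lists. Fat body (median 9.52) and male germ line (median 7.07) lie right of the dashed background line at 4.33, and 157 of the 166 chemoreceptor genes lie left of it.

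Genes with several probe sets showed how far a level depends on the probes. Of the 215 genes of the 300 highest, 15 had more than 1 probe set. In 3 of them, Pxn, B52 and Septin1 (12.59 and 3.77), another probe set was at background. The median gap between highest and lowest was 6.21 log2 units over the 15. regucalcin stood at 14.69 by its highest probe set and at 4.41 by its lowest, Pxn at 13.42 and 3.77, and RpL3 at 13.93 and 4.40. Prip (13.91 and 4.39), B52 (12.57 and 3.25) and lncRNA:CR42862 (13.43 and 4.57) had similar gaps. Close values were found for Karl (12.68 and 12.64) and Vha16-1 (13.90 and 12.54). Over all 1094 genes with several probe sets, the median gap was 1.28.

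The array also had a strong bias to the 3' ends of transcripts. The manufacturer's 3' probe sets exceeded the 5' ones by 8.64 log2 units for actin, 8.31 for eIF-4A and 5.79 for GAPDH. Where each probe set lies in its transcript was not used here, so a gene listed at background is not shown to be silent. Pdi, a disulfide isomerase of the secretory pathway, stood at 3.11 while ERp60 was at 13.71, and alphaTub84D, a general alpha-tubulin, stood at 5.18 while betaTub56D was at 12.83. The part that this bias had in these low values was not tested.

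**Figure D5:**
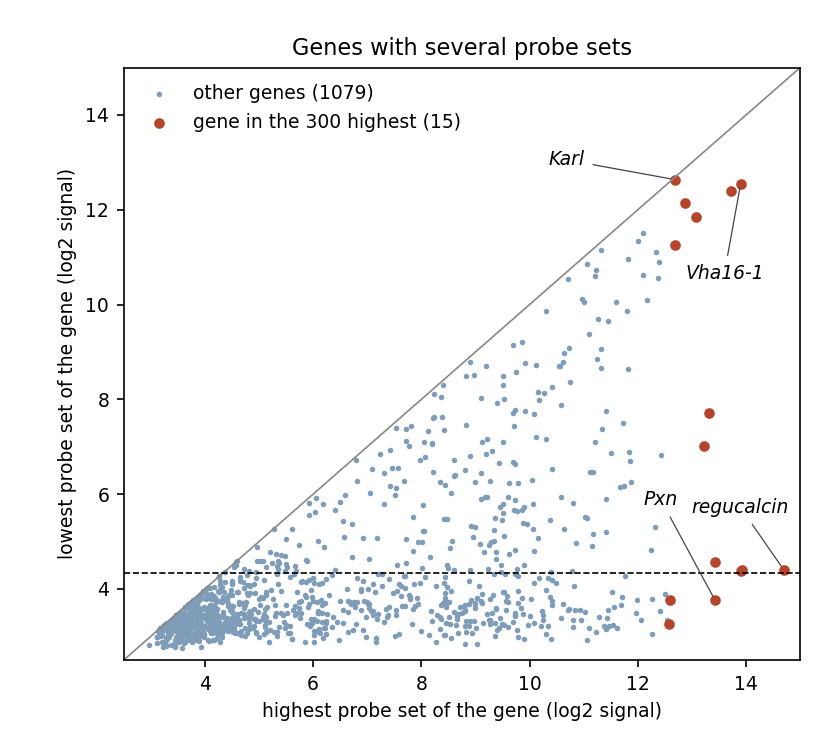
Highest (horizontal axis) against lowest (vertical axis) probe set level, in log2, for each of the 1094 genes with more than 1 named probe set on the control array. The diagonal marks equal levels and the dashed line the highest Bacillus control at 4.33, and of 15 genes with a probe set among the 300 highest (red) 3 have another probe set below that line.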

How the data were processed

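Hemocyte RNA of the control strain was measured on 1 Affymetrix array. The authors deposited 1 table of log2 values, which reach 14.69 on this array and were used as they stand. The submitters' processing notes name RMA and GCOS. Their roles, versions and settings are not given in the sources used here, and the log2 scale was read from the range of the values. Of 18952 probe sets, 183 manufacturer controls were left out of the ranking. Genes were named from the platform annotation, which gives 1 symbol for 13647 probe sets, several for 402 and none for 4720. These cover 11982 genes, of which 11893 matched the Release 6 gene table by identifier with no change of symbol. A gene took its highest probe set, and it was at background if that lay at or below the highest Bacillus control. Genes named in the text follow a rule: the named probe sets among the first 40, the 5 markers, members of the blood cell lists, up to 4 highest and 4 lowest members of every other list, members of other-tissue lists among the 300 highest, the 3 probe sets on either side of rank 300, and genes with the widest gaps between probe sets. Members of lists between these, Karl and Vha16-1 as examples of small gaps, and the proteasome and respiratory chain subsets were chosen after their values were seen. Members and lists were chosen with earlier results of these data known. The lists were also revised with the 300 highest levels in view: wrongly matched symbols were removed, CtsK1 was added to the lysosomal list, and signalling genes were divided by pathway. Alternatives tried were the level of a gene, the probe sets used, the number ranked as highest, the background limit and the summing of signal. Ranking code was tested on simulated data. Python 3.11.15, numpy 2.4.6, pandas 2.3.3 and matplotlib 3.10.9 were used. No depth applies to an array, and the single array limits the precision.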

Additional observations from a re-analysis of the deposited data

How the results depend on the processing

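The number of probe sets at background was 8840 against the highest Bacillus control, 6127 against the 95th percentile of these controls and 1301 against their median, so it depends on the limit chosen. Genes at background numbered 3801, and 2261 with the 95th percentile. For 11 lists, the share of named probe sets in the 300 highest was also computed by gene, by mean of probe sets, without probe sets ending in _s_at or _x_at, and for the 200 and 500 highest. Of these shares, 2 left the 95% Wilson interval of the main value, which covers counting error only. Ribosomal proteins fell from 9.22% to 5.63% without probe sets of those types. The respiratory chain was at 2.30% among the 300 highest and 0.714% among the 200 highest. Shares of summed signal moved by under 1.5 times, and the median percentiles of 21 lists stayed within the 95% order-statistic interval of the main median, which is wide for short lists. The order of the basement membrane and general hemocyte lists, which share Col4a1, vkg and Pxn, turned with the setting: their median percentiles were 99.1 and 98.7 as reported, 97.7 each by the mean of probe sets, and 97.05 and 99.02 without the _s_at and _x_at probe sets. No paired analysis was possible because 1 array was described and no comparison was made.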

Other observations

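Neighbours in the Release 6 gene order are described here, beside the 1.79% of named genes that had a probe set among the 300 highest. How many pairs of such neighbours that share alone would give was not computed. Of 10347 pairs of neighbouring protein-coding genes with both genes named, 361 held at least 1 gene of the 300 highest, and in 7 both genes were among them. These were vkg with Col4a1, the collagen IV chains, Fer1HCH with Fer2LCH, the ferritin chains, chic with eIF4A, Ip259 with RpS27A, CG8501 with Cpr49Ac, CG5854 with Gdh, and CG3164 with Gs1. The pair of CG8501 (14.25) and Cpr49Ac (13.45) holds the only cuticle list gene of the 300 highest. Across all pairs the levels of neighbours had a Pearson correlation of 0.25, given as a description, since pairs share genes.

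Second copies of proteasome and respiratory chain genes had lower medians than the other genes of their lists. In 14 proteasome genes the symbol is that of another subunit with an added capital T or R, with or without a number (Rpt3R, Prosalpha6T, Prosbeta5R1). This subset, chosen after the values were seen, had levels of 3.67 to 8.04 with a median of 5.76. The 26 other proteasome genes had levels of 10.06 to 12.67 with a median of 11.47. That these groups did not overlap is a description, given how the subset was chosen. All named genes had a median of 6.25, near that of the 14, and 14.6% of them reached 10. The 19 respiratory chain genes whose symbol ends in an added capital L, with or without a number (COX4L, ND-20L), chosen likewise, had a median of 6.15, against 9.98 for the 58 others, and these ranges overlapped. Among non-coding genes, lncRNA:CR42862 was in the 300 highest at 13.43, while 60 of 77 long non-coding RNA genes were at background. Of all named genes, 1.79% had a probe set among the 300 highest and 31.7% were at background.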
